A study of Mus musculus with 48 samples.

Results

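10 genes that neurons switch on after firing, and whose products act at the synapse, are secreted or regulate the signal itself, were followed in the amygdala of female mice with reduced *Brd1*: *Arc*, *Npas4*, *Homer1*, *Bdnf*, *Inhba*, *Nptx2*, *Vgf*, *Dusp1*, *Gadd45b* and *Ptgs2*. They were chosen by gene symbol, with earlier results of these data known, and make up 10 of the 52636 genes in the table. Shares of the 10 genes set beside those of all genes are therefore descriptions and no independent support. All 10 were above 0 in each of the 48 libraries, and all 10 passed the filter on low values (at least 0.1 TPM, a level corrected for gene length and scaled to the same sum in each library, in at least 8 libraries) in each of 11 comparisons. *Fos*, the immediate-early transcription factor most often used as a marker of recent activity, was set beside them.

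The study asked how reduced *Brd1*, which encodes a chromatin reader protein, and antidepressants alter gene expression. There were 6 groups with 8 mice in each: wild-type (WT) mice and mice heterozygous for a deletion within *Brd1* (*Brd1*+/-), each given saline (vehicle), imipramine (IMN) at a dose of 10 mg/kg, or 5 mg/kg of fluoxetine (FLX). All were females with the strain label C57BL/6NTac-Brd1, 8 to 11 weeks old. The deletion was made with a targeting vector that had loxP sites around exons of *Brd1*. The mice of every group, vehicle included, had been injected on each day of a course of open field, tail suspension and forced swim tests that ended shortly before the brains were taken, so no group was undisturbed. IMN blocks the reuptake of noradrenaline and serotonin, and FLX is a selective inhibitor of serotonin reuptake. Each library came from a punch of the right amygdala of 1 mouse.

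When calcium enters a firing neuron, kinases and phosphatases carry the signal to transcription factors already bound at promoters and enhancers, such as CREB, SRF and MEF2. Genes like *Fos* and *Npas4* are transcribed first, and their products then help to switch on effectors that alter the synapse. In the amygdala such genes respond to stress, fear and novelty, and Bdnf in particular has been studied for its part in the response to antidepressants.

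Libraries differed in what the punch held. The 4 amygdala markers were at 8.40 to 164 TPM (*Prkcd*), 0.0818 to 31.4 TPM (*Rspo2*), 34.6 to 288 TPM (*Wfs1*) and 1.09 to 10.0 TPM (*Calcrl*). In 7 libraries the summed level of 7 markers of striatal projection neurons was 5364 to 7996 TPM, against 130 to 3796 TPM in the other 41; these striatum-rich libraries were WT vehicle 3, WT IMN 2 and 8, *Brd1*+/- vehicle 1, *Brd1*+/- IMN 2 and 6 and *Brd1*+/- FLX 2. Their *Fos* levels were 2.74 to 13.1 TPM and did not overlap the 16.1 to 58.1 TPM of the other 41. In 4 libraries (WT vehicle 1, WT FLX 2, *Brd1*+/- vehicle 3 and *Brd1*+/- FLX 8) choroid plexus markers summed to over 5000 TPM. *Brd1* itself was at 35.6 ± 5.09, 36.9 ± 2.83 and 32.9 ± 4.45 TPM (SD, n = 8) in vehicle, IMN and FLX WT mice and at 26.0 ± 2.90, 23.4 ± 4.84 and 23.5 ± 3.49 TPM in the *Brd1*+/- groups. Results that rest on the libraries that stand apart are given with and without them.

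Promoter sequence around the start sites was read for the genes with an entry in the RefSeq table (GRCm38.p6): *Npas4*, *Homer1*, *Bdnf*, *Inhba*, *Dusp1*, *Gadd45b*, *Ptgs2* and *Fos*. Letters bound by activity-dependent factors were searched on both strands in the 250 bases before each start: the cyclic AMP response element CRE (TGACGTCA), its core TGACG, the Fos/Jun motif TGANTCA, the Egr motif GCGNGGGCG, the Nr4a motif AAAGGTCA and the CArG box of SRF. Of 32851 promoter windows, 1.55% held the CRE, 17.8% its core (which also lies within every CRE), 6.75% the Fos/Jun motif, 4.70% the Egr motif, 1.34% the Nr4a motif and 1.47% a CArG box. The stretches with matches are shown because these genes are compared with *Fos* throughout; capitals mark the matched letters, or their complement where the match is on the other strand, and each reads 5′ to 3′ along the gene's strand. *Npas4* held the core 2 times at chr19:4990116-4990170 (minus strand), *Homer1* held it 3 times at chr13:93303681-93303756 (plus strand), and *Dusp1* held the whole CRE at chr17:26508588-26508635 and a separate core at chr17:26508639-26508683 (minus strand). 1 of 7 *Bdnf* windows held the core, at chr2:109692381-109692425, and another the Fos/Jun motif, at chr2:109676860-109676906 (both plus strand). *Gadd45b* held the Egr motif at chr10:80930041-80930089 (plus strand), and *Fos* held the core 2 times, at chr12:85473741-85473785 and chr12:85473804-85473848 (plus strand). No match was found in the single windows of *Inhba* and *Ptgs2*.
*Npas4*: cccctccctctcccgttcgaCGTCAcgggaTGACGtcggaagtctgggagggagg
*Homer1*: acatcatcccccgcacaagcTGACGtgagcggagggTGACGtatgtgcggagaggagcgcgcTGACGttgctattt
*Bdnf*, core: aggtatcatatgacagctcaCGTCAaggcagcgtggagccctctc
*Bdnf*, Fos/Jun motif: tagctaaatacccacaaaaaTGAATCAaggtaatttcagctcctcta
*Dusp1*, core: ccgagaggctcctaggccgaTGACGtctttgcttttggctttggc
*Dusp1*, CRE: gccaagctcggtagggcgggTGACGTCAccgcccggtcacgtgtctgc
*Gadd45b*: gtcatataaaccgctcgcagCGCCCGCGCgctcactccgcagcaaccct
*Fos*, farther core: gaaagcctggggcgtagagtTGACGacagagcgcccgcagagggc
*Fos*, nearer core: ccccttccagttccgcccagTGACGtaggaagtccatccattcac

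Levels and their spread differed widely among the secreted products. *Vgf* (chr5:137026392-137033351, plus strand), the precursor of neuropeptides released from dense-core vesicles, had the highest level of the 10, with a mean of 231 TPM over the 48 libraries and a narrow range, its highest library being 3.79 times its lowest. *Bdnf* (chr2:109674700-109727007, plus strand), the neurotrophin that acts through TrkB, had a mean of 7.37 TPM and the widest range of all, 272 times, from 0.0950 TPM in *Brd1*+/- IMN 2 to 25.8 TPM in WT vehicle 2. *Nptx2* (chr5:144545902-144557478, plus strand), a pentraxin that clusters AMPA receptors at excitatory synapses, had a mean of 26.6 TPM and spanned 11.0 times. *Inhba* (chr13:16011851-16031621, plus strand), which encodes the subunit of the TGF-beta family ligand activin A, had a mean of 5.22 TPM and spanned 17.3 times.

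Of the postsynaptic proteins, *Homer1* (chr13:93299635-93405129, plus strand), a scaffold that links metabotropic glutamate receptors to intracellular calcium stores, had a mean of 82.6 TPM, and *Arc* (chr15:74669083-74672570, minus strand), which promotes the removal of AMPA receptors from the synapse, had a mean of 57.1 TPM. Both spanned close to 10 times (9.46 and 9.89). *Homer1* levels sum the long forms and the short, activity-induced form, and *Bdnf* levels sum the transcripts of all its promoters, since the table holds 1 value a gene. *Npas4* (chr19:4984355-4990316, minus strand), a neuronal transcription factor induced by calcium entry, had a mean of 9.99 TPM and spanned 8.07 times.

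Among the regulators, *Dusp1* (chr17:26505590-26562128, minus strand), a nuclear phosphatase that switches MAP kinases off, had a mean of 22 TPM and the narrowest range, 2.57 times. *Gadd45b* (chr10:80930073-80932204, plus strand), a stress-induced protein linked to DNA demethylation at activity-regulated genes, had a mean of 20.1 TPM and spanned 4.96 times. *Ptgs2* (chr1:150100031-150108227, plus strand), the inducible cyclooxygenase that makes prostaglandins, had the lowest mean of the 10, 3.53 TPM, and group medians from 0.761 to 6.23 TPM. Positions are on GRCm38. Whether reads were counted by strand is not stated in the sources used here, and genes on the opposite strand overlap *Dusp1* (*Ergic1*, mean 94.6 TPM) and *Inhba* (*B230303A05Rik*, mean 10.5 TPM), so levels of these pairs may share reads. The *Dusp1* span is that of GENCODE and reaches upstream of its RefSeq promoter window (chr17:26508473-26508722). Whether *Ergic1* overlaps the shorter RefSeq form was not examined.

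**Figure D1:**
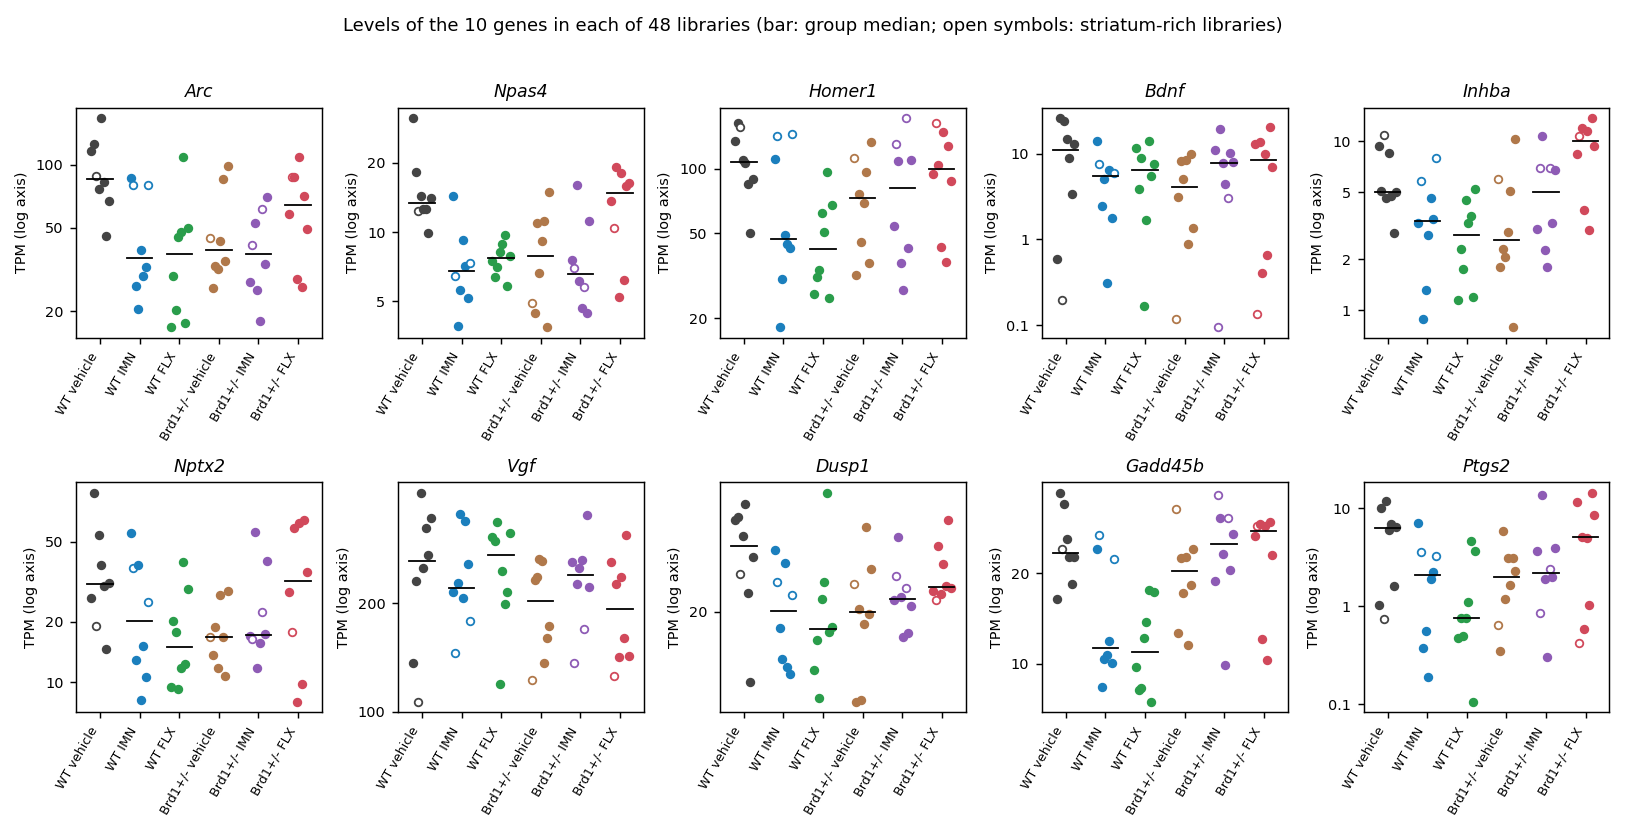
Level of each of the 10 genes in TPM (log axis) in the 6 groups of 8 mice, with a point for each library (open where striatum-rich) and a bar for the group median. 8 of the 10 genes had their highest mean in WT vehicle mice, and *Inhba* and *Ptgs2* had theirs in FLX-treated *Brd1*+/- mice.

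Group means followed a shared order at the top but not at the bottom. 8 of the 10 genes had their highest mean in WT vehicle mice (all but *Inhba* and *Ptgs2*, highest in *Brd1*+/- FLX). The lowest mean was in WT FLX mice for *Homer1*, *Inhba*, *Gadd45b* and *Ptgs2*, in *Brd1*+/- vehicle mice for *Bdnf*, *Nptx2* and *Vgf*, in WT IMN mice for *Npas4* and *Dusp1* and in *Brd1*+/- IMN mice for *Arc*. For every gene, groups next to each other in the order of means overlapped within 1 SD. In a limma F test over the 6 groups, *Gadd45b* (F = 5.47, adjusted p = 0.0349) and *Npas4* (F = 5.16, adjusted p = 0.0478) differed among groups, 2 of 10 genes against 1.7% of all 27944 genes tested. Without the 7 striatum-rich libraries 1 of the 10 passed, and without the 4 choroid-rich libraries 0 did.

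In vehicle-treated mice, all 10 genes were lower in *Brd1*+/- than in WT, by 0.32 to 1.12 on the log2(TPM + 0.1) scale, which is used for all differences here. The median was -0.94, against 0.03 over the 24279 genes tested. None of the 10 passed an adjusted p of 0.05, a threshold passed by 0.708% of all genes (0.0206% in the lower direction). 4 of the 10 were lower at an unadjusted p under 0.05, against 1.61% of all genes in that direction. In punches of tissue, fewer cells of a type and less RNA per cell cannot be told apart.

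*Arc* ranged from 45.7 to 166 TPM (median 85.2) in WT vehicle mice and from 25.8 to 98.8 TPM (median 39.0) in *Brd1*+/- vehicle mice. The groups overlapped, and *Arc* differed by -1.01 (SE 0.30, limma adjusted p = 0.225; exact permutation p = 0.0101). *Npas4* ranged from 9.88 to 31.2 TPM (median 13.3) in WT and from 3.86 to 15 TPM (median 7.88) in *Brd1*+/- vehicle mice. Here too the ranges overlapped, and the difference was -0.97 (SE 0.29, limma adjusted p = 0.230; exact permutation p = 0.00591). The log2 differences were -0.95 (SE 0.43, limma adjusted p = 0.547) for *Inhba* and -0.93 (SE 0.32, limma adjusted p = 0.350) for *Nptx2*. *Bdnf*, at -0.97, had an SE of 1.01, so that its wide spread between mice left the difference unresolved.

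In WT mice most of the 10 genes were lower with either drug than with vehicle. Both drug groups were compared with the same 8 vehicle mice, so the drug comparisons are not independent of each other. With FLX, 9 of 10 genes were lower (all but *Vgf*, 0.03 higher), with a median of -1.05 against 0.05 over all genes. *Npas4* and *Gadd45b* fell at an adjusted p under 0.05. That is 2 of 10 genes, against 0.335% of 23557 genes in either direction and 0.0552% in the lower direction. With IMN, all 10 were lower, by 0.04 to 1.32 (median -0.83, all genes -0.00), and none of the 10 passed, nor did any of the 23644 genes tested (0%); 1084 genes had an unadjusted p under 0.05 by limma.

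*Npas4* ranged from 9.88 to 31.2 TPM (median 13.3) in WT vehicle mice and from 5.84 to 9.71 TPM (median 7.68) in WT FLX mice. All 8 FLX mice were below all 8 vehicle mice, as was the case in that direction for 0.0255% of all genes. The fall was 1.93-fold, a log2 difference of -0.95 (SE 0.19, 95% confidence interval -1.35 to -0.54, limma adjusted p = 0.0429; exact permutation p = 0.000155, two-sided, the smallest that 12870 arrangements allow). *Gadd45b* ranged from 16.4 to 37.0 TPM (median 23.4) in WT vehicle and from 7.46 to 17.6 TPM (median 10.9) in WT FLX mice. 7 of the 8 vehicle mice were above the highest FLX mouse, and the difference was -1.11, a 2.16-fold fall (SE 0.21, interval -1.56 to -0.66, limma adjusted p = 0.0352; exact permutation p = 0.000622). In all, 7 of 10 were lower at an unadjusted p under 0.05, against 6.25% of all genes in that direction, and the other 5 did not pass the adjustment: *Arc* (-1.37, limma adjusted p = 0.0890), *Homer1* (-1.26, adjusted p = 0.0649), *Inhba* (-1.19, adjusted p = 0.109), *Nptx2* (-0.99, adjusted p = 0.185) and *Ptgs2* (-1.95, adjusted p = 0.169).

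The adjusted p of *Npas4* and of *Gadd45b* passed 0.05 when any of 12 of the 16 mice was left out (0.0505 to 0.109 for *Npas4*, 0.0505 to 0.0933 for *Gadd45b*). Both stayed called without WT vehicle 1 or 7 or WT FLX 6 or 8, and their log2 differences stayed between -1.03 and -0.79 and between -1.20 and -1.02 over all 16 fits. *Arc* was called without WT vehicle 7 or WT FLX 6 (adjusted p 0.0412 and 0.0363), and *Homer1* without WT vehicle 1 or 7 or WT FLX 6 or 8 (0.0240 to 0.0433). Over all genes, the 79 calls of this comparison became 1 without WT FLX 7 and 956 without WT vehicle 1, where 3 of the 10 genes passed. Without the striatum-rich library both calls were missed at an adjusted p of 0.0505, with differences of -0.98 for *Npas4* and -1.11 for *Gadd45b*.

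With IMN, 5 of the 10 genes had an unadjusted p under 0.05 in WT mice, against 2.64% of all genes in the lower direction. *Npas4* ranged from 3.92 to 14.4 TPM (median 6.78) in WT IMN mice and differed from vehicle by -1.08 (SE 0.25, limma adjusted p = 0.722). The others were *Arc* (-1.06, SE 0.33), *Inhba* (-0.90, SE 0.40), *Homer1* (-0.87, SE 0.40) and *Gadd45b* (-0.78, SE 0.26), each with a limma adjusted p of 0.970. Set directly against each other in WT mice, FLX and IMN differed by -0.63 to 0.18 over the 10 genes, with none at an unadjusted p under 0.05 (4.78% of all genes were), and no gene of 23501 passed the adjustment (0%; 1123 had an unadjusted p under 0.05 by limma).

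In *Brd1*+/- mice most of the 10 genes were higher with either drug than with vehicle, and none passed the test. With FLX, 9 of 10 were higher than with vehicle (all but *Vgf*, at -0.00), with a median of 0.40, and with IMN 8 of 10 were higher, over a range of -0.24 to 0.84. The calls over all genes were 0.731% of 24336 genes with FLX and 0.776% of 24225 with IMN. *Inhba* with FLX was the single case at an unadjusted p under 0.05, a threshold that 1.28% of all genes passed in the higher direction. *Inhba* ranged from 0.794 to 10.3 TPM (median 2.60) in *Brd1*+/- vehicle mice and from 2.97 to 13.7 TPM (median 10.1) in *Brd1*+/- FLX mice. 4 of the 8 FLX mice were above the highest vehicle mouse, and the difference was 1.41 (SE 0.45, limma adjusted p = 0.311; exact permutation p = 0.0131). Between the drugs, FLX was above IMN by 0.86 (SE 0.40) for *Inhba* and by 0.73 (SE 0.31) for *Npas4*, the 2 of 10 genes higher at an unadjusted p under 0.05 (1.28% of all genes were), while no gene of 23724 passed (0%; 709 had an unadjusted p under 0.05 by limma).

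The drug difference was therefore compared between genotypes directly, as the difference in *Brd1*+/- minus that in WT mice. For FLX, this interaction was above 0 for 9 of 10 genes, with a median of 1.65 against -0.10 over all genes. It passed for *Inhba*, *Npas4* and *Gadd45b*, 3 of 10 genes, against 1.71% of 26657 genes in either direction and 0.176% in the higher direction. For IMN, all 10 were above 0, from 0.29 to 1.68 with a median of 1.01 (all genes -0.03), and none passed, against 0.536% of 26673 genes. The 4 vehicle and drug groups of each test share the vehicle mice, and WT vehicle mice had the highest level of most of these genes.

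*Inhba* had a median of 5.05 TPM with vehicle and 2.80 TPM with FLX in WT mice (ranges 2.87 to 11.0 and 1.16 to 5.20 TPM). Its medians in *Brd1*+/- mice, 2.60 and 10.1 TPM, went the other way. The interaction was 2.60 (SE 0.58, 95% interval 1.4 to 3.79, limma adjusted p = 0.0163), and it stayed between 2.34 and 2.84 and under an adjusted p of 0.05 whichever of the 32 mice was left out. *Npas4* medians were 13.3 and 7.68 TPM in WT and 7.88 and 14.8 TPM in *Brd1*+/- mice, an interaction of 1.62 (SE 0.39, 0.82 to 2.42, limma adjusted p = 0.0263). Leaving out *Brd1*+/- vehicle 2 or 7 raised the adjusted p of *Npas4* to 0.0549 and 0.05004.

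*Gadd45b* medians were 23.4 and 10.9 TPM in WT and 20.3 and 27.6 TPM in *Brd1*+/- mice, an interaction of 1.3 (SE 0.35, 0.60 to 2.01, limma adjusted p = 0.0460). The call for *Gadd45b* held in 11 of 32 fits without a mouse and was lost in the other 21 (adjusted p 0.0542 to 0.0886): it held without WT vehicle 1 or 7, WT FLX 5, 6 or 8, *Brd1*+/- vehicle 1, 3, 5 or 8, or *Brd1*+/- FLX 4 or 6. With these, 8 of 10 genes were higher at an unadjusted p under 0.05, against 5.08% of all genes. The other 5 were *Ptgs2* (2.84, limma adjusted p = 0.158), *Arc* (1.74, adjusted p = 0.0699), *Homer1* (1.68, adjusted p = 0.0671), *Nptx2* (1.68, adjusted p = 0.129) and *Dusp1* (0.65, adjusted p = 0.163). *Arc* and *Homer1* were called without WT vehicle 7, WT FLX 6, *Brd1*+/- vehicle 8 or *Brd1*+/- FLX 4 or 6, and *Homer1* also without *Brd1*+/- vehicle 1 (adjusted p 0.0235 to 0.0441 for *Arc* and 0.0267 to 0.0489 for *Homer1*). *Vgf* was at -0.03 (SE 0.36), and *Bdnf*, at 0.67 with an SE of 1.49 and an interval of -2.38 to 3.72, was left unresolved. Without the striatum-rich libraries, *Inhba* alone passed (2.55, limma adjusted p = 0.0356), and without the choroid-rich libraries none did (*Inhba* 2.40, *Npas4* 1.44 and *Gadd45b* 1.34, adjusted p 0.0538 to 0.0583).

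For IMN, 4 of the 10 genes had an interaction above 0 with an unadjusted p under 0.05, against 2.71% of all genes. These were *Inhba* (1.45, SE 0.64, limma adjusted p = 0.496), *Gadd45b* (1.04, SE 0.37, adjusted p = 0.356), *Npas4* (1.03, SE 0.41, adjusted p = 0.437) and *Dusp1* (0.48, SE 0.23, adjusted p = 0.534). The same 4 genes also had an unadjusted p under 0.05 for FLX.

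**Figure D2:**
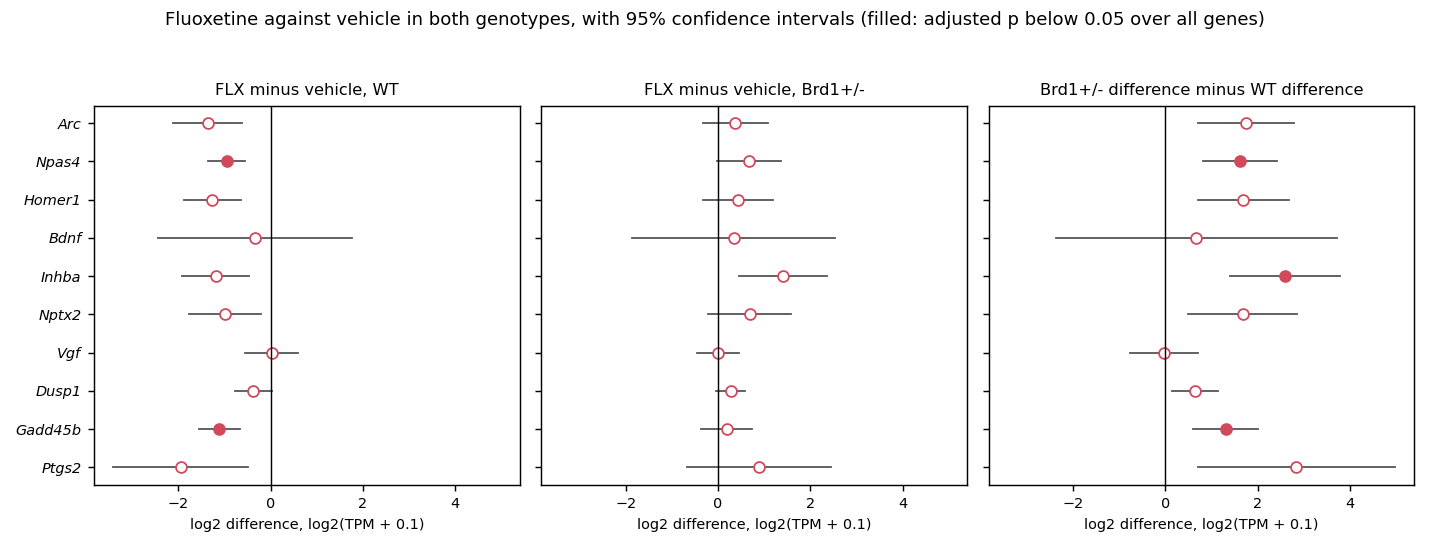
Log2 differences of the 10 genes for FLX against vehicle in WT mice, FLX against vehicle in *Brd1*+/- mice and their interaction, with 95% confidence intervals from limma. In WT mice 9 of 10 lay below 0, in *Brd1*+/- mice 9 of 10 lay above 0, and the intervals of *Inhba*, *Npas4* and *Gadd45b* for the interaction started at 1.4, 0.82 and 0.60.

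Between the genotypes under FLX, 8 of 10 genes were higher in *Brd1*+/- mice (all but *Bdnf* and *Vgf*), with a median of 0.74 against -0.06 over all genes. *Inhba* rose at an adjusted p under 0.05, 1 of 10 genes against 1.54% of 23635 genes in either direction and 0.165% in the higher direction. It ranged from 1.16 to 5.20 TPM in WT FLX and from 2.97 to 13.7 TPM in *Brd1*+/- FLX mice. 6 of the 8 *Brd1*+/- mice were above the highest WT mouse, and the difference was 1.65, or 3.14-fold (SE 0.38, interval 0.86 to 2.44, limma adjusted p = 0.0369; exact permutation p = 0.00218). *Gadd45b* (0.96, SE 0.26, limma adjusted p = 0.0723), *Homer1* (1.03, SE 0.35, adjusted p = 0.139), *Npas4* (0.65, SE 0.25, adjusted p = 0.2) and *Ptgs2* (1.72, SE 0.79, adjusted p = 0.282) also had unadjusted p-values under 0.05, which makes 5 of 10 genes against 5.28% of all genes in that direction.

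The *Inhba* difference under FLX kept its size, 1.5 to 1.85, whichever of the 16 mice was left out, but its adjusted p passed 0.05 in 10 of these fits (0.0531 to 0.0874). They were the fits without WT FLX 1, 2, 3, 5 or 7 or *Brd1*+/- FLX 2, 3, 5, 7 or 8, and *Brd1*+/- FLX 2 is the striatum-rich library of this comparison. *Gadd45b* was called without *Brd1*+/- FLX 4 or 6 (1.09 and 1.12, adjusted p 0.0373 and 0.0262). Without the choroid-rich libraries *Inhba* was at 1.60 (adjusted p = 0.124). Under IMN the genotypes differed by -0.19 to 0.70 over the 10 genes and none passed, against 0.017% of 23581 genes; *Gadd45b*, at 0.70 (SE 0.29, limma adjusted p = 1), was the single gene at an unadjusted p under 0.05 (1.98% of all genes in that direction).

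Median levels of cell type markers differed among these groups, but marker levels were not tested between groups. The summed level of 6 markers of pallial excitatory neurons (cortex, hippocampus and basolateral amygdala) had a median of 558 TPM in WT vehicle mice (8.48 to 1632), 60.6 TPM in WT FLX (11.4 to 866), 161 TPM in *Brd1*+/- vehicle (2.86 to 690) and 611 TPM in *Brd1*+/- FLX mice (2.40 to 1283). The summed level of 6 markers of diencephalic neurons had medians of 40.1 (5.55 to 93.4), 108 (27.6 to 217), 32.5 (10.6 to 105) and 17.7 TPM (5.83 to 36.1) in the same order, and none of these markers was at 0 in every library. The summed level of 7 oligodendrocyte markers had medians of 1959 (687 to 11083), 5828 (1992 to 8549), 5572 (2323 to 16305) and 2895 TPM (908 to 17204). The ranges of all 3 sums overlapped among the 4 groups. In WT IMN mice the medians were 59.7 TPM (21.5 to 1527) for pallial, 35.0 TPM (6.24 to 201) for diencephalic and 3330 TPM (1383 to 11058) for oligodendrocyte markers. In *Brd1*+/- IMN mice the same 3 medians were 293 TPM (12.8 to 1192), 41.4 TPM (7.02 to 176) and 2407 TPM (1174 to 6853).

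With the pallial and diencephalic marker scores as covariates in the fit, the FLX interaction was 1.13 for *Inhba* (limma adjusted p = 0.548), 0.83 for *Npas4* (adjusted p = 0.586) and 0.60 for *Gadd45b* (adjusted p = 0.690). The *Inhba* difference between genotypes under FLX was then 0.33 (adjusted p = 0.984). In WT mice the FLX difference was -0.67 for *Npas4* (adjusted p = 0.540) and -0.69 for *Gadd45b* (adjusted p = 0.519) in that fit. With striatal, oligodendrocyte and choroid plexus scores instead, the interaction was 1.59 for *Inhba*, 1.05 for *Npas4* and 0.59 for *Gadd45b*, with adjusted p of 0.0934, 0.246 and 0.400. None of these 3 interactions, nor the calls for FLX in WT mice and between genotypes under FLX, held with either set of scores. Nor did any other gene pass for FLX in WT mice (0 of 23557) or between genotypes under FLX (0 of 23635) with either set, and for the interaction 38 genes passed with the pallial and diencephalic and 195 with the other scores, against 455 without. With *Fos* as the covariate all 3 interactions held (*Inhba* 2.72, *Npas4* 1.54 and *Gadd45b* 1.32, adjusted p 0.00667 to 0.0256), and *Arc* (1.78, adjusted p = 0.0397) and *Homer1* (1.79, adjusted p = 0.0240) passed too. In that fit the calls over all genes also rose, from 455 to 1421 of 26656.

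Across libraries, within groups, levels of the 10 genes changed with the cell marker scores. *Arc*, *Npas4* and *Gadd45b* changed with the pallial, diencephalic and oligodendrocyte scores alike. Rose and fell mean here a slope with an adjusted p under 0.05. All 10 slopes on the pallial score were above 0. On the pallial score, 6 genes rose (10.9% of 27938 genes did), with *Bdnf* (slope 0.79 per log2 unit, limma adjusted p = 3.54e-10), *Ptgs2* (0.58, adjusted p = 6.36e-10) and *Nptx2* (0.29, adjusted p = 7.46e-07) ahead of *Arc*, *Npas4* and *Gadd45b* (0.12 to 0.16). On the diencephalic score, 6 genes fell (9.28% of all genes did): *Homer1* (-0.37), *Inhba* (-0.37), *Arc* (-0.31), *Gadd45b* (-0.18), *Npas4* (-0.15) and *Dusp1* (-0.12). *Vgf* alone rose on that score (0.19, limma adjusted p = 9.56e-07), against 25.6% of all genes. The slope of *Bdnf* on it was steeper but did not pass (0.39, SE 0.16, limma adjusted p = 0.0513). On the oligodendrocyte score, 8 genes fell, all but *Vgf* and *Dusp1*, against 10.8% of all genes.

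On the striatal score over the 48 libraries, 4 of the 10 genes rose, against 9.56% of 27937 genes. They were *Homer1* (0.25), *Inhba* (0.24), *Arc* (0.17) and *Gadd45b* (0.09), with limma adjusted p from 1.24e-05 to 0.0440. *Bdnf* (-0.59, adjusted p = 5.34e-05) and *Vgf* (-0.16, adjusted p = 7.10e-07) fell, as did 30.3% of all genes. The 7 striatum-rich libraries themselves are described by their levels, without a test. Their median was above that of the other 41 libraries for *Homer1* (145.2 against 62.1 TPM), *Inhba* (6.99 against 3.49 TPM), *Arc* (79.7 against 45.3 TPM) and *Gadd45b* (28.7 against 18.3 TPM). It was below for *Bdnf*, at 0.195 against 7.77 TPM, for *Ptgs2*, at 0.853 against 2.26 TPM, for *Vgf*, at 137 against 246 TPM, and for *Npas4*, at 6.96 against 9.13 TPM. *Dusp1* (22.7 against 21.4 TPM) and *Nptx2* (19.1 against 18.8 TPM) were alike, and the ranges overlapped for all 10 genes. The part of cell makeup in the group differences was not tested beyond these fits.

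*Fos* itself did not pass in any comparison of groups. Its group means were 43.4, 22.9 and 33.0 TPM in vehicle, IMN and FLX WT mice and 23.3, 24.9 and 28.5 TPM in the *Brd1*+/- groups. It differed by -0.92 (SE 0.53, limma adjusted p = 0.691) between genotypes with vehicle and by -0.23 (SE 0.40, adjusted p = 0.825) with FLX in WT mice. The FLX interaction of *Fos* was 0.52 (SE 0.69, adjusted p = 0.760).

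Per library, *Bdnf* and *Vgf* were correlated with *Fos*, while for *Arc*, *Homer1* and *Inhba* the pooled r was near 0 over groups that differed in sign. Since *Fos* separated the striatum-rich libraries from the rest, the relation was computed over the other 41 libraries with group means subtracted, and no r with *Fos* over all 48 is given. Pearson's r with *Fos* was 0.783 for *Bdnf* and 0.740 for *Vgf*, each with a permutation p of 1e-05, the smallest that 100000 permutations can give. Spearman's rho was 0.668 and 0.685 (permutation p = 1e-05 for both), and r was 0.719 and 0.7 without the 2 libraries farthest from the *Fos* median. *Nptx2* followed with r = 0.523 (permutation p = 0.00035; rho 0.525, permutation p = 0.00053; 0.444 without the 2 libraries).

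*Ptgs2* (r = 0.388, permutation p = 0.0125; rho 0.322, p = 0.0407; 0.353 without the 2 libraries) and *Gadd45b* (r = 0.370, permutation p = 0.0173; rho 0.338, p = 0.0309; 0.319 without them) were weaker. The r of the remaining 5 genes ran from -0.235 for *Dusp1* to 0.159 for *Npas4*, with *Arc* at -0.024, *Inhba* at 0.044 and *Homer1* at 0.099. In the 14 vehicle libraries of these 41, r was 0.555 for *Bdnf* (rho 0.354, permutation p = 0.214) and 0.809 for *Vgf*. In the 27 drug libraries it was 0.876 and 0.715. For *Nptx2*, *Ptgs2* and *Gadd45b*, r was 0.127, 0.116 and 0.208 in the vehicle libraries and 0.646, 0.480 and 0.426 in the drug libraries. The remaining 5 genes ran from -0.520 to -0.324 in the vehicle and from -0.078 to 0.444 in the drug libraries. The difference between vehicle and drug libraries was not tested. Within each of the 6 groups r with *Fos* was above 0 for *Bdnf* (0.155 to 0.983) and *Vgf* (0.116 to 0.844), with 6 to 8 libraries a group. In *Brd1*+/- vehicle mice, where r of *Bdnf* was lowest, its rho was -0.107. For the other genes the sign differed between groups: r within a group ran from -0.626 to 0.884 for *Arc*, from -0.444 to 0.964 for *Homer1* and from -0.651 to 0.966 for *Inhba*, each highest in *Brd1*+/- FLX mice. *Npas4* ran from -0.803 to 0.939 in the same way, and the difference between groups was not tested.

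As slopes from limma over the 41 libraries, *Bdnf* rose by 3.02 log2 units per log2 unit of *Fos* (SE 0.40, adjusted p = 6.74e-05), the second smallest p of all genes. *Nptx2* rose by 1.08 (SE 0.29, adjusted p = 0.00940) and *Vgf* by 0.70 (SE 0.11, adjusted p = 0.000129). These 3 of 10 genes compare with 9.08% of 27423 genes that rose and 16.1% that rose or fell. Over all 48 libraries 4 genes passed, against 38.1% of 27943 genes: *Bdnf* (1.47), *Ptgs2* (0.58) and *Vgf* (0.37) rose and *Homer1* fell by 0.34 (adjusted p = 0.0136). A share of 4 in 10 is near that background, and without the striatum-rich libraries the *Homer1* slope was 0.17. With pallial and diencephalic scores as covariates over the 48 libraries, *Npas4* (0.38, adjusted p = 0.00301) and *Vgf* (0.18, adjusted p = 0.0384) rose with *Fos*. These were 2 of 10 genes against 15% of all genes, and *Bdnf* no longer passed. With striatal, oligodendrocyte and choroid plexus scores instead, *Bdnf* (1.06, limma adjusted p = 0.00892), *Npas4* (0.42, adjusted p = 0.00105) and *Vgf* (0.26, adjusted p = 0.00434) rose. These were 3 of 10 genes, against 8.83% of all genes that rose or fell.

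**Figure D3:**
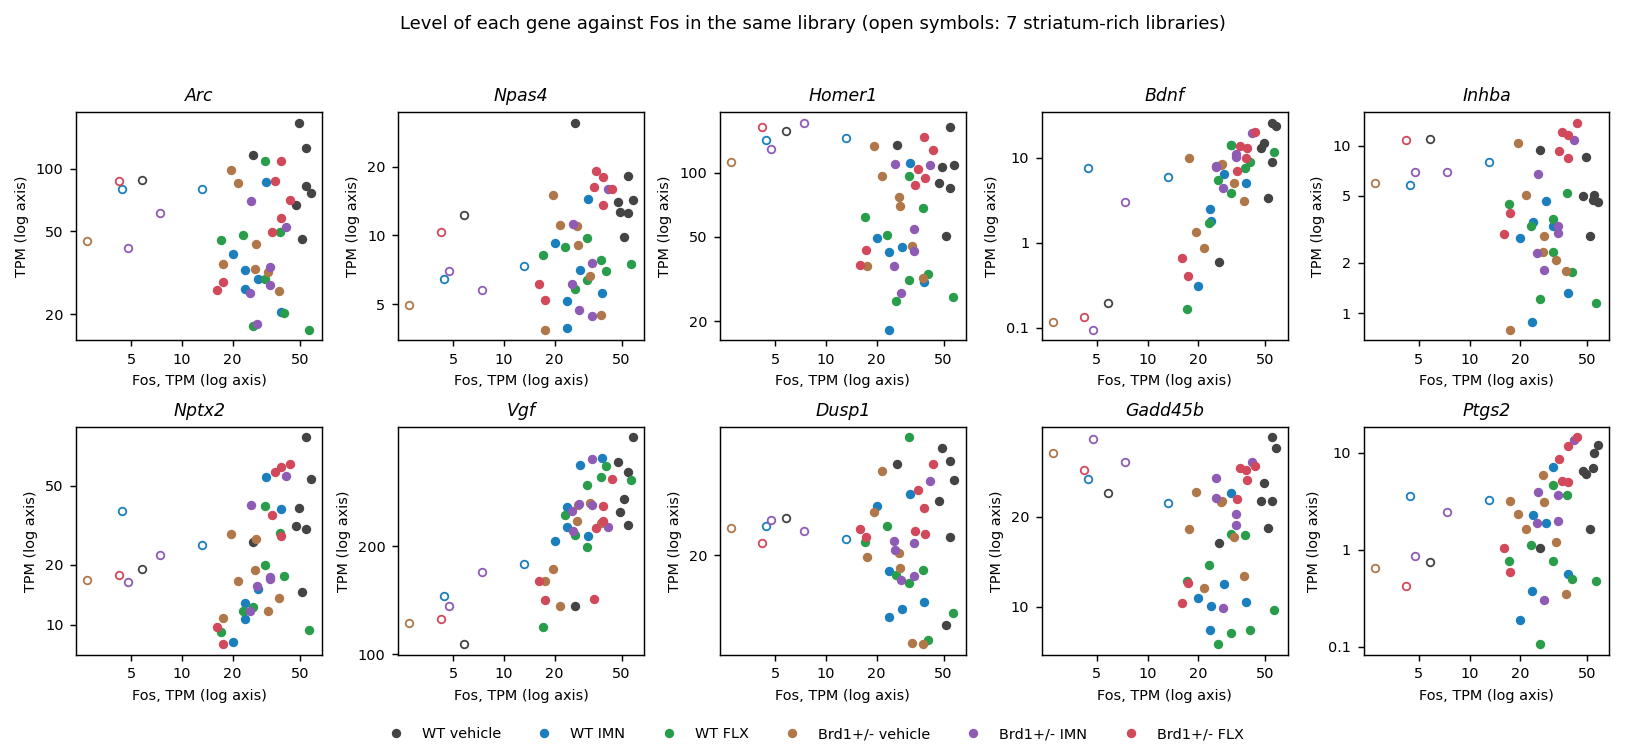
Each of the 10 genes against *Fos* per library, both in TPM on log axes, with the 7 striatum-rich libraries marked apart from the other 41. The striatum-rich libraries lay at 2.74 to 13.1 TPM of *Fos*, left of all others, and among the other 41 *Bdnf* and *Vgf* rose with *Fos*.

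Among themselves, most of the 10 genes moved together from library to library. Over the 41 libraries with group means subtracted, r of all 45 pairs ran from -0.407 to 0.901 with a median of 0.595. The 28 pairs that leave out *Vgf* and *Bdnf* all had r above 0, from 0.437 to 0.901 with a median of 0.695. This split describes the values and is no test, and no background of other gene pairs is given. The 9 pairs with *Bdnf* were above 0 too, from 0.011 with *Inhba* to 0.659 with *Nptx2*, with a median of 0.220. Only pairs with *Vgf* were below 0. *Arc* and *Homer1* were the closest pair (0.901), followed by *Homer1* and *Npas4* (0.874), *Homer1* and *Inhba* (0.865) and *Gadd45b* and *Ptgs2* (0.856). *Vgf* and *Dusp1* were the most opposed (-0.407). These correlations are descriptions over libraries that share differences in cell makeup.

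**Figure D4:**
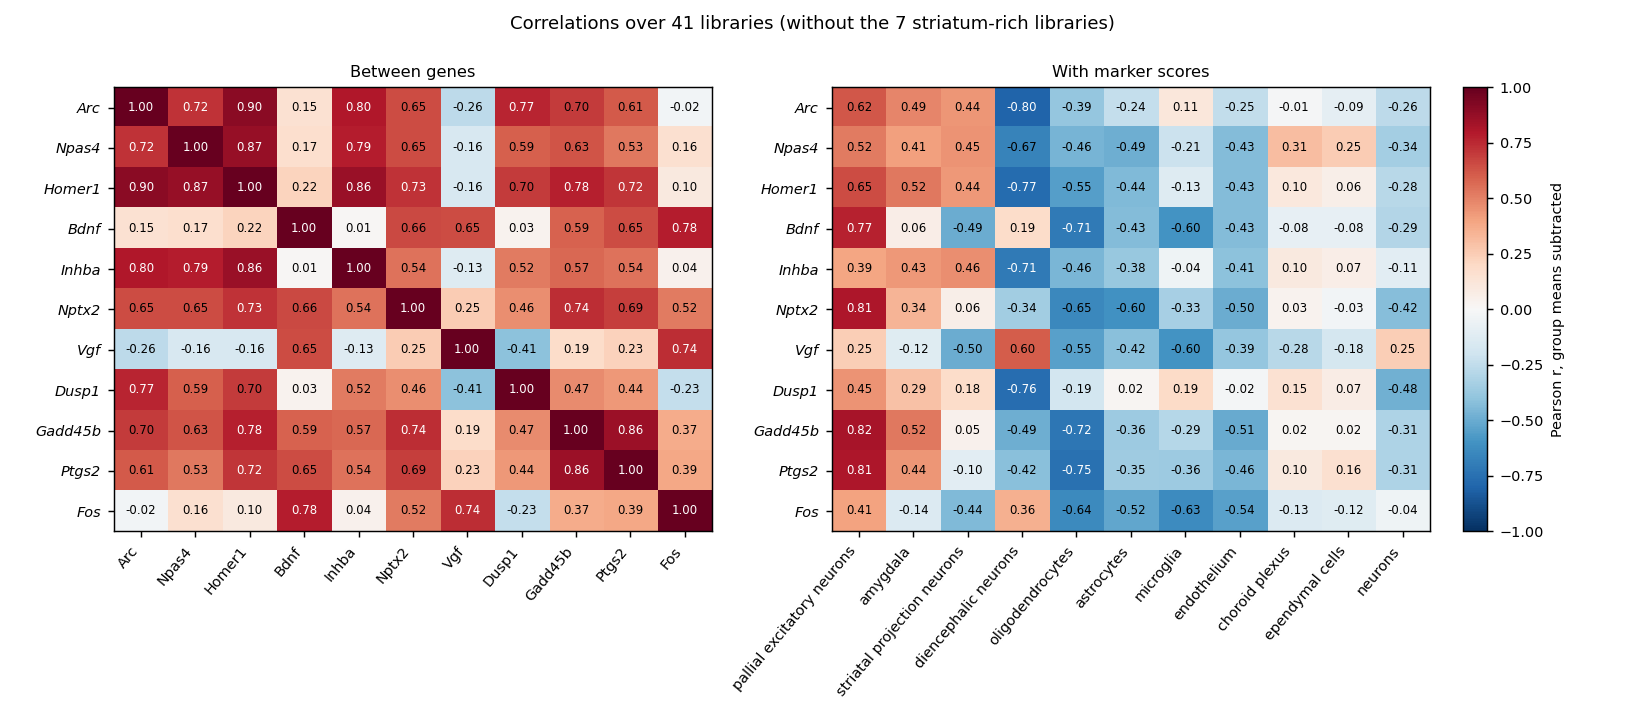
Pearson's r over 41 libraries, group means subtracted, between each pair of the 10 genes and between each gene and the marker scores of cell types. The 28 pairs without *Vgf* and *Bdnf* were at 0.437 to 0.901, and *Vgf* with *Dusp1* was at -0.407.

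The genes most like each of the 10 were sought among 19222 genes with a mean of at least 1 TPM, by r over the 48 libraries with group means subtracted. *Arc* (*Nr4a1* 0.884, *Ankrd33b* 0.882, *Ephx4* 0.879) and *Npas4* (*Nr4a1* 0.799, *Btaf1* 0.769, *Egr2* 0.761) had immediate-early transcription factors among their nearest 3. *Homer1* was nearest to *Ankrd33b* (0.970), *Chn1* (0.955) and *Cnksr2* (0.953), and *Inhba* to *Baiap2* (0.884), *Homer1* (0.875) and *Akap5* (0.859). *Bdnf* was nearest to *Nrn1* (0.936), *Grp* (0.911) and *Gabbr2* (0.906), of which *Nrn1* encodes the secreted protein neuritin and *Grp* gastrin-releasing peptide.

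*Nptx2* was nearest to *Scube1* (0.817), *Pip4k2c* (0.811) and *Dkk3* (0.806), and *Vgf* to *Ss18l1* (0.915), *Stub1* (0.911) and *Entpd6* (0.904). *Dusp1* was nearest to *Ptn* (0.773), *Ptk2* (0.759) and *Fmnl1* (0.757), *Gadd45b* to *Grik5* (0.901), *Tmem121b* (0.898) and *Ncan* (0.895), and *Ptgs2* to *Gm39822* (0.910), *Arhgap15* (0.891) and *C230057M02Rik* (0.891). *Fos* was in the nearest 3 of none of the 10. Without the striatum-rich libraries, r of *Arc* with *Nr4a1* was 0.937, of *Homer1* with *Ankrd33b* 0.963, of *Bdnf* with *Nrn1* 0.929 and of *Vgf* with *Ss18l1* 0.882.

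Other genes of the activity response were taken in 4 lists, also chosen with earlier results of these data known. Of 20 immediate-early transcription factors, 17 were lower in *Brd1*+/- than in WT mice with vehicle (median -0.66) and none passed; *Egr1* (-0.75, limma adjusted p = 0.105) and *Egr4* (-0.84, adjusted p = 0.209) came closest. With FLX in WT mice 18 of 19 tested were lower (median -0.93), and *Egr1*, a zinc-finger factor, fell by 1.15 (SE 0.21, limma adjusted p = 0.0287). With IMN in WT mice no gene of any list passed (*Fosl2* -1.18, adjusted p = 0.669; *Nr4a1* -1.01, adjusted p = 0.722).

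The FLX interaction was higher for 3 of 20 of these factors, *Egr2* (2.49, limma adjusted p = 0.0426), *Egr4* (2.27, adjusted p = 0.0123) and the orphan nuclear receptor *Nr4a1* (1.5, adjusted p = 0.0459), with a list median of 1.27 against -0.10 over all genes, of which 0.176% passed in that direction. Of 20 other activity-induced effectors 1 passed, *Plk2* (1.66, adjusted p = 0.0396), a kinase that scales synapses down, with a list median of 0.29. Of 19 upstream signalling genes *Srf* (0.78, adjusted p = 0.0401) passed, with a list median of 0.36. Of 20 receptors and binding partners of the 10 products none passed (median -0.16), *Grm5* (0.70, adjusted p = 0.168) and *Shank2* (0.80, adjusted p = 0.203) coming closest. For IMN no gene of the 4 lists passed (*Nr4a1* 1.06, adjusted p = 0.277).

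In the remaining comparisons, no gene of the other effectors, upstream or receptor lists passed between genotypes with vehicle (smallest p for *Dusp5*, *Srf* and *Ngfr*, at -0.82, -0.31 and 1.61) or with FLX in WT mice (*Plk2* -1.22, limma adjusted p = 0.0613; *Srf* -0.56, adjusted p = 0.0784; *Shank3* -0.67, adjusted p = 0.0555). Between genotypes under FLX none of the 4 lists had a call (*Egr4* 1.43, adjusted p = 0.0859; *Plk2* 1.12, adjusted p = 0.0589; *Rps6ka5* 0.86, adjusted p = 0.0572; *Gria4* -0.42, adjusted p = 0.109). With *Fos* over the 41 libraries, against 9.08% of all genes that rose and 6.99% that fell, 7 of the 20 other effectors rose, *Nrn1* (slope 2.47), *Nptx1* (1.39) and *Pcsk1* (1.20) most steeply, and 4 immediate-early factors rose (*Nr4a2* 1.43, *Fosb* 1.04, *Fosl2* 0.62 and *Jun* 0.49). Of the receptors and partners 5 rose and 2 fell: *Nptxr*, the receptor that joins *Nptx2* at synapses, rose by 1.66, and *Ngfr*, the low-affinity neurotrophin receptor, fell by 2.13.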

How the data were processed

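The authors extracted RNA from frozen punches, prepared TruSeq libraries, aligned single-end reads to GRCm38 with HISAT2 2.1.0 and quantified genes with StringTie 1.3.4; FastQC and Trimmomatic are named in the submitters' processing notes. The deposited values are TPM, 1 column a library (sums 999524 to 999772; 23420 to 27252 genes above 0), which keep no read depth, so no interval or floor from counting was computed and a value rests on an unknown number of reads. A rise in some transcripts lowers the TPM of all others.

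Groups came from the labels. Symbols and positions came from GENCODE M21 on GRCm38 (52489 of 52636 IDs found). The members and lists were chosen with earlier results of these data known. log2(TPM + 0.1), a scale that understates changes of low genes, was fitted in limma 3.58.1 (R 4.3.3; eBayes with trend) on the groups compared, for genes with at least 0.1 TPM in at least 8 libraries, in place of the study's count test; Benjamini-Hochberg adjustment was over all genes, two-sided, at 0.05. There were 9 pairwise comparisons, 2 interactions, an F test and a slope on log2 *Fos* with group as a term. Single genes were also tested by exact permutation over 12870 arrangements in R. Correlations were tested by random permutation (numpy 2.4.6), with Spearman's rho from scipy 1.17.1. p-values measure the spread between the mice of a group. The tests were checked on simulated data. Marker scores are the mean log2 values of each list, and striatum-rich and choroid-rich libraries have a marker sum over 5000 TPM, a limit chosen after seeing the data. Members' differences are given singly at an unadjusted p under 0.05, up to 4 called or 2 uncalled genes are named per list, and 3 genes most alike per member. Sample codes run from 121 to 155 for vehicle and from 351 to 445 for drug mice, so treatment and whatever the codes stand for cannot be told apart. Alternatives were other pseudocounts (0.01, 1), filters, scalings, priors, covariates, a replicate block, a code range and leaving out libraries. The code range set lower against higher codes within vehicle and within drug mice, so it does not adjust for the difference in codes between treatments. No library was identical to another.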

Additional observations from a re-analysis of the deposited data

Results flagged for a closer look

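In 66 groups of 8 mice, 4 held a mouse farther from its neighbour than Dixon's 95% limit on the gap as a share of the group's range, a limit that chance passes in about 1 in 20 groups. *Arc* was at 109 TPM in WT FLX 6 (next 49.8 TPM, a gap of 0.642 of the range), and *Dusp1* was at 34.3 TPM in the same mouse (next 22.9 TPM, 0.551). *Npas4* was at 31.2 TPM in WT vehicle 1 (next 18.3 TPM, 0.606), a choroid-rich library. *Ptgs2* was at 13.6 TPM in *Brd1*+/- IMN 3 (next 3.91 TPM, 0.729).

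The difference between FLX and vehicle differed between genotypes, by limma's interaction test, for *Inhba* (2.60), *Npas4* (1.62) and *Gadd45b* (1.3).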

How the results depend on the processing

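Of the 10 genes, the number called in each comparison was recomputed under each alternative. Of the recomputed numbers, 163 were within 1.5 times the reported one and 35 were not. A reported 0 that stayed at 0 counts among the 163, although such a comparison had no call to lose, so the 2 numbers do not measure how well calls held. For FLX against vehicle in WT mice (2 reported) it was 1 without a filter, 0 without the trend, in 1 fit of 48 libraries, with the replicate block, with the code range, with either set of marker scores or without striatum-rich libraries, and 5 with *Fos* as a covariate. Between genotypes under FLX (1 reported) it was 0 without a filter, without the trend, in 1 fit of 48 libraries, with the block, with the code range, with either set of scores or without striatum-rich or choroid-rich libraries. For the FLX interaction (3 reported) it was 0 with either set of scores or without choroid-rich libraries, 1 without striatum-rich libraries and 5 with *Fos*. For IMN in WT mice (0 reported) it was 1 with pallial and diencephalic scores (*Arc*, -0.78, limma adjusted p = 0.00147). Over the 6 groups (2 reported) it was 1 with a pseudocount of 0.01, without the trend, with the block, with the code range or without striatum-rich libraries, and 0 with a filter of 1 TPM, with quantile normalization or without choroid-rich libraries. For the *Fos* slope (4 reported) it was 2 with pallial and diencephalic scores, in vehicle libraries or in drug libraries. The cause was not tested. Leaving out each mouse in turn gave 0 to 4 for FLX in WT mice, 0 to 2 between genotypes under FLX, 0 to 2 over the 6 groups, 1 to 5 for the FLX interaction, 3 to 5 for the *Fos* slope and 0 elsewhere.

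Signs turned in 21 single values. With pallial and diencephalic scores, *Homer1* between genotypes under FLX was -0.17 and the *Dusp1* FLX interaction -0.041, and *Fos* slopes were 0.022 (*Arc*), 0.077 (*Inhba*) and 0.055 (*Dusp1*). *Fos* slopes were 0.19 (*Arc*), 0.020 (*Homer1*) and 0.12 (*Inhba*) with striatal, oligodendrocyte and choroid plexus scores, 0.27 (*Arc*), 0.15 (*Homer1*), 0.24 (*Inhba*) and 0.016 (*Gadd45b*) with the striatal score, 0.17 (*Homer1*), 0.088 (*Inhba*) and 0.43 (*Gadd45b*) without striatum-rich libraries, and -0.0047 for *Npas4* in WT libraries. Without subtracting group means, r with *Fos* over the 41 libraries was 0.246 (*Arc*), 0.271 (*Homer1*), 0.196 (*Inhba*), 0.037 (*Dusp1*) and 0.420 (*Gadd45b*), each on the other side of 0 from its value with the striatum-rich libraries.

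Replicate numbers showed little sign of pairing the mice. In no comparison did more than 4 of 8 same-numbered pairs correlate above 0.1, and the median r ran from -0.084 to 0.125. The authors matched WT and *Brd1*+/- mice by litter, but the labels name no litter. Litters were therefore not taken into account, and this check cannot show them. With the replicate block the calls over all genes were 63 against 172 between genotypes with vehicle, 46 against 364 with FLX, 0 against 79 for FLX in WT mice, 87 against 188 and 81 against 178 for IMN and FLX in *Brd1*+/- mice and 330 against 455 for the FLX interaction, where *Inhba* (adjusted p = 0.0221) and *Npas4* (0.0401) stayed called by limma. Calls over all genes for FLX in WT mice were also 51 without a filter, 10 in 1 fit of 48 libraries, 0 with either set of scores, 1241 with *Fos* as a covariate and 287 without choroid-rich libraries (1 to 956 on leaving out each mouse), and between genotypes under FLX 224 without a filter, 29 in 1 fit, 0 with either set of scores and 45 without choroid-rich libraries (70 to 490 on leaving out each mouse). For the FLX interaction they were 38 and 195 with the scores, 1421 with *Fos* and 247 to 695 on leaving out each mouse.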
